A study of Mus musculus with 12 samples.

Results

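The epidermal growth factor (EGF) receptor, its relatives, the ligands that activate them and the enzyme that releases most of these ligands were followed in mouse kidneys with and without ischemia. The 10 genes were taken by symbol, as named parts of the pathway, with no threshold on their values: the ligands Egf, Hbegf, Areg, Ereg, Tgfa and Btc, the receptors Egfr, Erbb2 and Erbb3, and the sheddase Adam17. All 10 are among the 23420 genes of the count table, and 7 had enough counts to be tested. Areg, Ereg and Btc did not.

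The 12 kidneys came from male C57BL/6J mice aged 8 to 15 weeks, a wild-type inbred strain. The 4 control kidneys were obtained at nephrectomy. The other 8 were collected 24 h after a 20 min clamping of the renal pedicle, in an experiment that asked whether anaesthesia during the clamping matters. For these 8, titles and group annotation disagree. Ischemia set A holds 4 kidneys titled anaesthetised but annotated conscious, ischemia set B holds 4 kidneys titled conscious but annotated anaesthetised, and neither set is assigned to a state here. The treatment text attached to the control kidneys gives the same 20 min and 24 h, whereas the methods call them normal kidneys. Since the study's text elsewhere names sham surgery as the comparison, the surgery and the interval that the controls had are not settled here, and the consequences of surgery and of ischemia cannot be told apart. Total counts were between 15367342 and 44793350 per kidney. The first principal component, 26.5% of the variance, separated controls from ischemic kidneys, and the second set replicate 4 of set B apart from the other 11.

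Ligands of the EGF family are made as membrane-bound precursors that are cut by ADAM metalloproteases, chiefly ADAM17, and the released part acts on nearby cells. Binding makes the receptors pair with one another and switches on the RAS-ERK, PI3K-AKT and STAT3 pathways. ERBB2 has no known ligand of its own, and ERBB3, a neuregulin receptor, has almost no kinase activity and signals through its partners. In the kidney, EGF itself is made by the thick ascending limb and the distal convoluted tubule and passes into urine, and receptor activation in injured tubules is known for its part in epithelial repair and, when prolonged, in fibrosis.

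Egf lies on the minus strand of chromosome 3 (mm10, 129677565 to 129755316). Areg lies on the plus strand of chromosome 5 (91139599 to 91148432), in a row of ligand genes in which Epgn, Ereg, Areg and Btc follow each other over 375.531 kb. Egfr lies on the plus strand of chromosome 11 (16752203 to 16918158). The 250 bases upstream of the start given by RefSeq, which for Egf lies a few bases upstream of the gene end printed above, are shown for these 3, as the ligand with the largest difference, a ligand without counts, and the receptor they share. They are from RefSeq (GRCm38.p6), written 5′ to 3′ on the strand of the gene. Of the 10 members, 7 matched a promoter entry. Hbegf, Ereg and Erbb3 are named only, and of 2 entries for Egf the upstream one is shown. Capitals mark matches, on either strand, to any of 10 motifs searched. These were the TATA box (TATAAA), the CCAAT box, the GC box (GGGCGG), the AP-1 motif (TGANTCA), the cyclic AMP response element or CRE (TGACGTCA), the motif of estrogen-related receptors (TCAAGGTCA), the TEAD motif (GGAATG), an E-box (CACGTG), and the longer HNF1 and NF-kB motifs.
Egf, chr3:129755323-129755572, minus strand: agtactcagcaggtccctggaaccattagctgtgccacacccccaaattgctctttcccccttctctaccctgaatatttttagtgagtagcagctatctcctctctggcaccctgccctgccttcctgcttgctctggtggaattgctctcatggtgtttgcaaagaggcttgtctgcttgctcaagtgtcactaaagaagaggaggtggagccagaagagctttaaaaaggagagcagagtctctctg
Areg, chr5:91139349-91139598, plus strand: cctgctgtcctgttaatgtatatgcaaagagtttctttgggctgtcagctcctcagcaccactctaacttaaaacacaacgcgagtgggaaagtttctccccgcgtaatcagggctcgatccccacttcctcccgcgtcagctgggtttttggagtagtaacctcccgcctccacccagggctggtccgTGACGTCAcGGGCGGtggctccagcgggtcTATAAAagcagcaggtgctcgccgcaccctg
Egfr, chr11:16751953-16752202, plus strand: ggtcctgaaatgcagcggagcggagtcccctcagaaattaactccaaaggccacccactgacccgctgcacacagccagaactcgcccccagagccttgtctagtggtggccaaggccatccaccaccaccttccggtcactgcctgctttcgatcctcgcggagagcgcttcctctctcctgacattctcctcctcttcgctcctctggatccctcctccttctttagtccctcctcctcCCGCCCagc
The Egf window held none of the 10 motifs. The Areg window held a CRE, a GC box and a TATA box, starting 61, 52 and 31 bases before the start, with no overlap among them. The Egfr window held 1 GC box, starting 9 bases before the start. Of 32851 RefSeq windows of this length, 32.7% held a GC box, 12.4% a TATA box and 1.55% a CRE. G and C made up 50.4% of the Egf window, 57.2% of the Areg window and 60.8% of the Egfr window, beside a median of 52.4% over all windows. These matches describe letters only and say nothing of binding.

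Egf, the main EGF receptor ligand of healthy kidney, fell in both ischemia sets by far more than any other member. Its level, as reads scaled to library size by TMM (CPM), was 225.8, 211, 194 and 191.5 in the controls. It was 5.46, 6.76, 1.87 and 1.87 in set A, and 2.53, 2.78, 0 and 0.889 in set B. Every ischemic kidney was below every control, and in replicate 3 of set B no count was assigned to Egf. The log2 fold change was -5.68 (SE 0.59) in set A and -7.03 (SE 0.64) in set B, with adjusted p = 4.84e-07 and 9.92e-08 (quasi-likelihood F-test of edgeR, Benjamini-Hochberg adjustment over 11664 genes). Over all genes tested, 28.2% had ranges that did not overlap between set A and control, 26.7% between set B and control, 2.61% between the sets, and 20.1% between all 8 ischemic kidneys and the controls. Between the sets the ranges of Egf overlapped, and the difference (set B minus set A, log2 -1.35, 95% interval -2.52 to -0.18) had an unadjusted p of 0.0259 and an edgeR adjusted p of 0.941. Without replicate 4 of set B, the kidney that stood apart, the log2 fold change of Egf in set B was -6.86. The exons of Egf overlap an antisense gene, 6330410L21Rik, and the strand setting of the counting is not given. That gene had no count in any kidney.

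Hbegf encodes heparin-binding EGF-like growth factor, a ligand also known from early responses to tissue injury. It was at 5.13, 4.73, 0.501 and 7.68 CPM in the controls, at 9.27, 11.2, 11.1 and 8.07 CPM in set A, and at 4.11, 2.21, 3.53 and 8.12 CPM in set B. All 4 kidneys of set A were above all controls, whereas 3 of 4 in set B were within the control range. The edgeR test did not call set A (log2 1.14, SE 0.66, 95% interval -0.24 to 2.52, adjusted p = 0.266). The exact permutation test of set A against control gave 0.0286, the smallest two-sided p that 4 against 4 allows, beside the 28.2% of all genes whose ranges did not overlap in that comparison. In set B the log2 fold change was -0.01 (SE 0.65, edgeR adjusted p = 0.998), and -0.46 without replicate 4 (edgeR adjusted p = 0.757). The 2 sets met at 8.07 and 8.12 CPM, and the difference between them (set B minus set A, log2 -1.14) had an edgeR adjusted p of 0.9997.

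Tgfa encodes transforming growth factor alpha, a membrane-anchored ligand. Its counts were low and varied within each group. They were 34, 70, 24 and 63 in the controls. They were 9, 58, 139 and 2 in set A kidneys, and 36, 54, 79 and 9 in set B kidneys. In CPM this was 0.926 to 1.82 in the controls, 0.12 to 3.06 in set A kidneys and 0.571 to 3.82 in set B kidneys. The ischemic kidneys lay on both sides of the control range, with 4 of 8 above it and 3 below. The 95% intervals of the log2 fold change, -2.68 to 2.66 in set A kidneys and -2.10 to 3.26 in set B kidneys, leave changes of several fold in either direction undetectable here (edgeR adjusted p = 0.997 and 0.842).

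Areg (amphiregulin) and Ereg (epiregulin), both known as inducible ligands, had 0 counts in all 12 kidneys. Btc (betacellulin) had 24 counts, or 0.808 CPM, in replicate 1 of set B and 0 in the other 11 kidneys. A count of 0 allows up to 3 counts, which corresponded to between 0.067 and 0.195 CPM across the libraries and covers counting error only. In this table low values were rare: 39.3% of genes had no count in any kidney, and only 1.22% of the values above 0 lay between 1 and 4. Whether small counts were set to 0 upstream was not tested, so 0 is given here as listed.

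**Figure D1:**
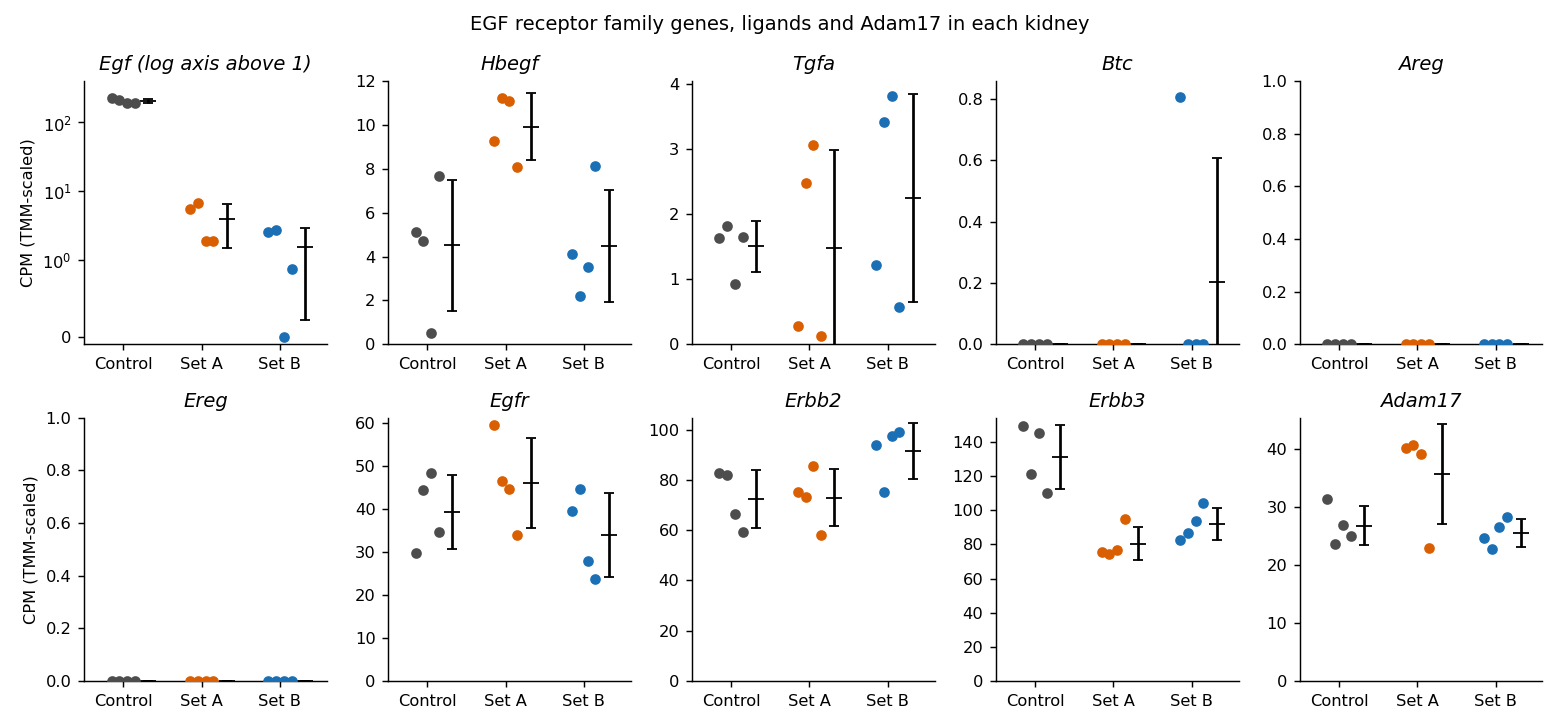
Level of the 10 members in each kidney, in TMM-scaled CPM (linear axes, except Egf, whose axis is logarithmic above 1 and linear below). Points are kidneys (4 per group), the horizontal mark is the mean and the bar 1 SD. Egf is at 191.5 to 225.8 in controls and at 0 to 6.76 after ischemia, and Areg and Ereg are at 0 throughout.

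The makeup of the ligand transcripts differed between control and ischemic kidneys. Levels of different genes were compared as CPM per kb of exon. By this measure Egf made up 94.1% ± 3.44 (SD, n = 4) of the summed level of the 6 ligands in controls, 13.1% ± 6.90 in set A (n = 4) and 9.97% ± 9.40 in set B (n = 4). Control kidneys ranged from 90.2% to 98.6%, and the 8 ischemic kidneys from 0% to 20.1%, without overlap (exact permutation test, two-sided p = 0.0286 for either set and 0.00404 for 8 against 4, the smallest values these designs allow). Hbegf took the largest share in 7 of the 8 ischemic kidneys, with a mean of 79.3% in set A kidneys and 60.6% in set B kidneys, from 4.73% in controls. This shift in share came with a fall of Egf, and Hbegf itself was not called. Tgfa had 1.19% in controls, 7.60% in set A kidneys and 26.3% in set B kidneys, where its share ranged from 4.76% to 44.6%. The mean level of Hbegf was 0.933 CPM per kb in controls, 2.05 in set A kidneys and 0.929 in set B kidneys, beside 18.2, 0.354 and 0.137 for Egf.

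**Figure D2:**
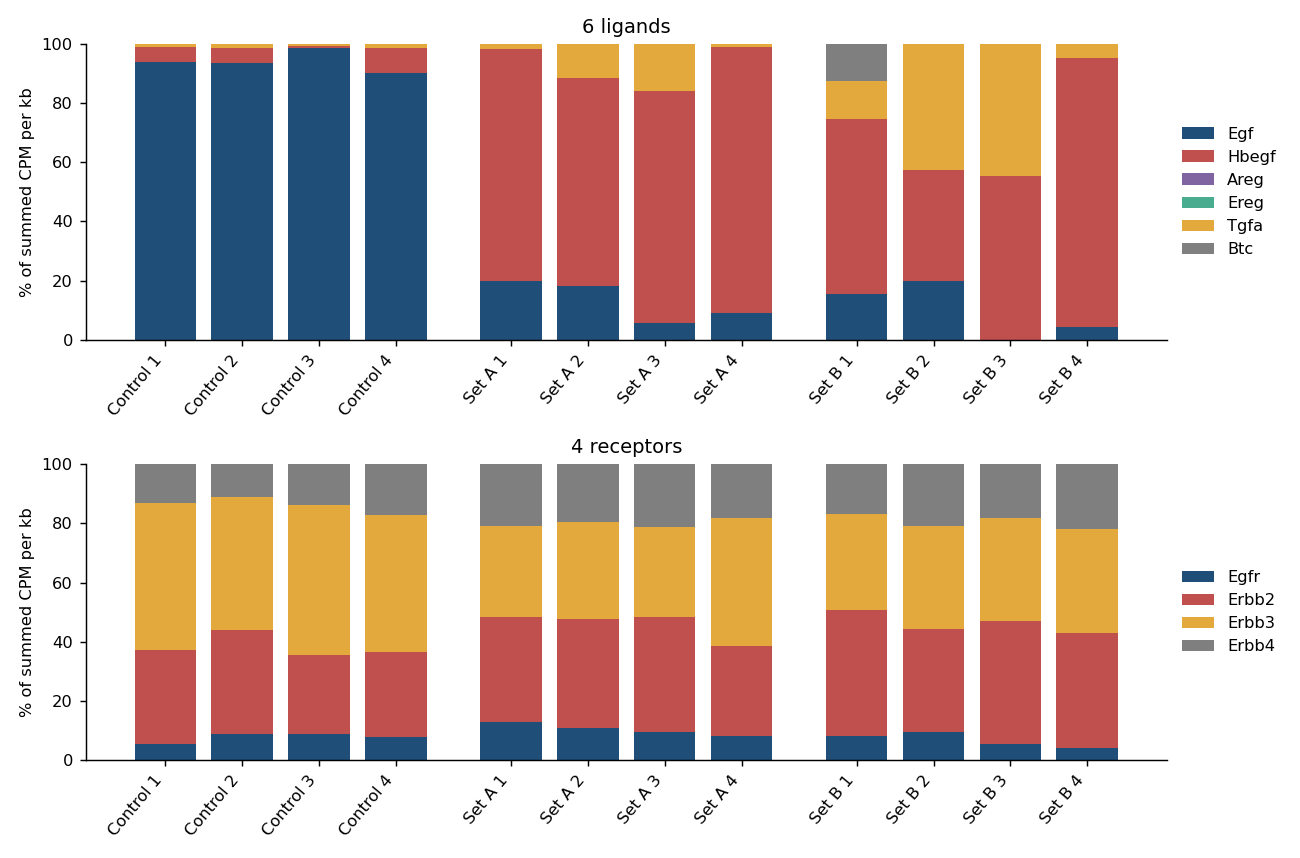
Share of each gene in the summed level (CPM per kb of exon, in percent) of the 6 ligands (top) and of the 4 receptors (bottom), with 1 bar for each of the 12 kidneys. Egf fills 90.2% to 98.6% of the ligand bar in controls and at most 20.1% after ischemia, and the share of Erbb3 is 44.98% to 50.7% in controls and 30.3% to 43.2% after ischemia.

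Since Egf is made in the distal nephron, it was set beside 12 markers of the thick ascending limb and distal convoluted tubule in the same libraries. In bulk tissue, fewer cells of a type and less RNA per cell cannot be told apart. The summed level of the 12 markers was 3061 to 3705 CPM in controls, 1192 to 1791 CPM in set A kidneys and 1071 to 2076 CPM in set B kidneys. None of the 12 was listed at 0 in every kidney. Of the 12, 3 fell in set A (Slc12a1, Cldn10 and Calb1) and 4 in set B (those 3 and Pvalb), none rose, and the median log2 fold changes were -1.08 and -1.24, beside -0.02 over all genes in either comparison. Of all genes tested, 11.7% fell in set A kidneys and 11.9% in set B kidneys.

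The markers did not move as a block. Slc12a1, the NKCC2 cotransporter of the thick ascending limb, fell in both sets (log2 -3.07 and -2.56, edgeR adjusted p = 3.09e-07 and 2.61e-06). In set B replicate 4 was at 528.8 CPM and the other 3 kidneys at 124.0 to 191.7 CPM, and without replicate 4 the log2 fold change of Slc12a1 in that set was -3.20 (edgeR adjusted p = 5.14e-12). Umod, the uromodulin gene of the same segment, was at 114.7 CPM in controls, 128 CPM in set A kidneys and 128 CPM in set B kidneys and was not called (edgeR adjusted p = 0.76 and 0.742). Slc12a3, the thiazide-sensitive cotransporter of the distal convoluted tubule, was at 964 CPM, 827 CPM and 876 CPM and was not called either. Relative to the summed markers, log2 Egf was -4.04 ± 0.12 (SD, n = 4) in controls, -8.63 ± 1.14 in set A (n = 4) and -9.56 ± 1.32 in the 3 kidneys of set B with counts of Egf. Replicate 3 of set B had none, so that its value (-14.17) is fixed by the prior count of 2. All 8 ischemic kidneys were below all 4 controls (exact permutation test, two-sided p = 0.00404). The mean difference (ischemic minus control) was -4.98 on the log2 scale without replicate 3 of set B (p = 0.00606, exact permutation test, 7 against 4), and -5.63 with it. The summed markers of these segments differed by -1.27 on the same scale. That sum is mostly Slc12a1, Slc12a3 and Calb1, at means of 1511, 964 and 629 CPM in controls. Over the 8 ischemic kidneys Slc12a3, which was not called, had a mean of 852 CPM, beside 1431 CPM for the sum. With the mean log2 level of the markers in place of their sum, the difference of Egf (ischemic minus control) was -5.35.

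**Figure D3:**
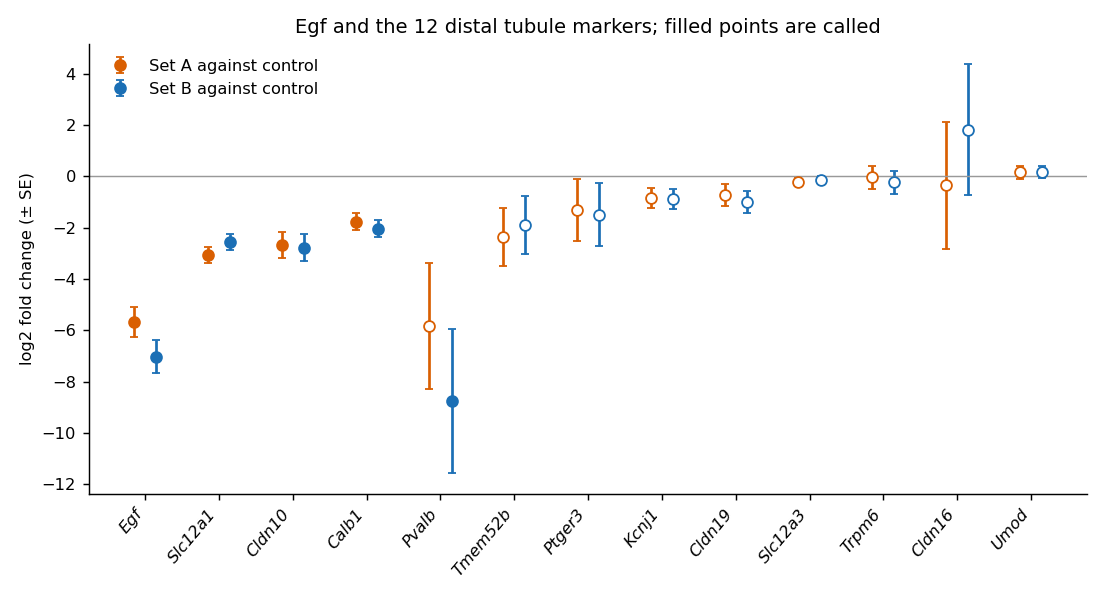
Log2 fold change against control (± SE, edgeR) of Egf and of 12 distal tubule markers, in set A and set B. Filled points have an adjusted p under 0.05. Egf, at -5.68 and -7.03, lies below all markers but Pvalb, which had at most 3 counts in any ischemic kidney, so that its fitted value depends on the prior count. Umod and Slc12a3 lie near 0.

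Of the receptors among the members, Egfr and Erbb2 were not called and Erbb3 fell. Egfr, the receptor of all 6 ligands, was at 29.7, 44.5, 48.4 and 34.7 CPM in controls, at 59.5, 46.5, 44.7 and 33.9 CPM in set A, and at 39.7, 44.7, 28.0 and 23.7 CPM in set B. The groups overlapped broadly, with means of 39.3 ± 8.60, 46.1 ± 10.5 and 34.0 ± 9.82 CPM (SD, n = 4 each). The log2 fold change was 0.23 in set A (SE 0.25, 95% interval -0.28 to 0.75) and -0.21 in set B (SE 0.25, -0.72 to 0.31), with edgeR adjusted p = 0.624 and 0.653.

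Erbb2, the co-receptor, was at 82.7, 81.8, 66.3 and 59.3 CPM in controls, at 75.1, 73.1, 85.6 and 58.1 CPM in set A, and at 93.8, 75.1, 97.5 and 99.1 CPM in set B. Of the 4 kidneys of set B, 3 were above all controls. It was not called in set A (log2 0.01, SE 0.17, edgeR adjusted p = 0.983) or in set B (log2 0.33, SE 0.17, 95% interval including 0, edgeR adjusted p = 0.192). The exons of Erbb2 overlap those of Mien1 on the other strand. Mien1 fell in set A (log2 -0.73, SE 0.22, edgeR adjusted p = 0.0181) and in set B (log2 -0.69, SE 0.22, edgeR adjusted p = 0.0254), and the part of shared reads in the value of Erbb2 was not tested.

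Erbb3 was the only receptor among the members that passed the test, and it fell in both sets. Its level was 149, 121, 145 and 110.2 CPM in controls. It was 75.6, 74.7, 76.7 and 95.2 CPM in set A, and 82.9, 86.5, 94.0 and 104.6 CPM in set B. Every ischemic kidney was below every control (8 against 4, exact permutation test, two-sided p = 0.00404), although replicate 4 of set B at 104.6 CPM lay close to the lowest control at 110.2 CPM. Of all genes tested, 20.1% had ranges that did not overlap between the 8 ischemic kidneys and the controls. Erbb3 was 1.63-fold lower in set A (log2 -0.71, SE 0.15, edgeR adjusted p = 0.00189) and 1.43-fold lower in set B (log2 -0.52, SE 0.15, edgeR adjusted p = 0.0193). In set B the call was lost without replicate 1 of the controls (log2 -0.45, edgeR adjusted p = 0.062) and without replicate 3 of the controls (log2 -0.48, edgeR adjusted p = 0.0528), and it was kept without replicate 4 of set B (log2 -0.58, edgeR adjusted p = 0.0113). Between the sets the fold changes of Erbb3 were not called different.

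Adam17, the main sheddase of these ligands, was at 31.3, 23.7, 26.9 and 24.9 CPM in controls, at 40.0, 40.6, 39.1 and 22.8 CPM in set A, and at 24.5, 22.6, 26.5 and 28.2 CPM in set B. In set A, 3 kidneys were above all controls and replicate 4 was below them all. It was not called in set A (log2 0.42, SE 0.23, edgeR adjusted p = 0.242), in set B (log2 -0.07, edgeR adjusted p = 0.907) or between the sets (log2 -0.49, unadjusted p 0.0509, edgeR adjusted p = 0.983). Its exons overlap those of Iah1 on the other strand, which fell in set A (log2 -2.35, SE 0.73, edgeR adjusted p = 0.0238) and in set B (log2 -3.06, SE 0.75, edgeR adjusted p = 0.00486). Without replicate 1 of set B, the log2 fold change of Iah1 in that set was -3.78. The part of shared reads was not tested.

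Of the 7 members tested, 2 fell and 0 rose in set A, and the same 2, Egf and Erbb3, fell in set B, where 1 was left without replicate 1 or without replicate 3 of the controls. Over all genes tested, 22.3% were called in set A (11.7% lower and 10.5% higher), and 22.8% in set B (11.9% lower and 10.9% higher). Both sets were compared with the same 4 controls. Between set B and set A no member was called, where 1 of the 11664 genes (0.00857%) was called and 587 genes (5.03%) had an unadjusted p under 0.05. Of the members, Egf had such a p, and DESeq2 called 44 genes.

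**Figure D4:**
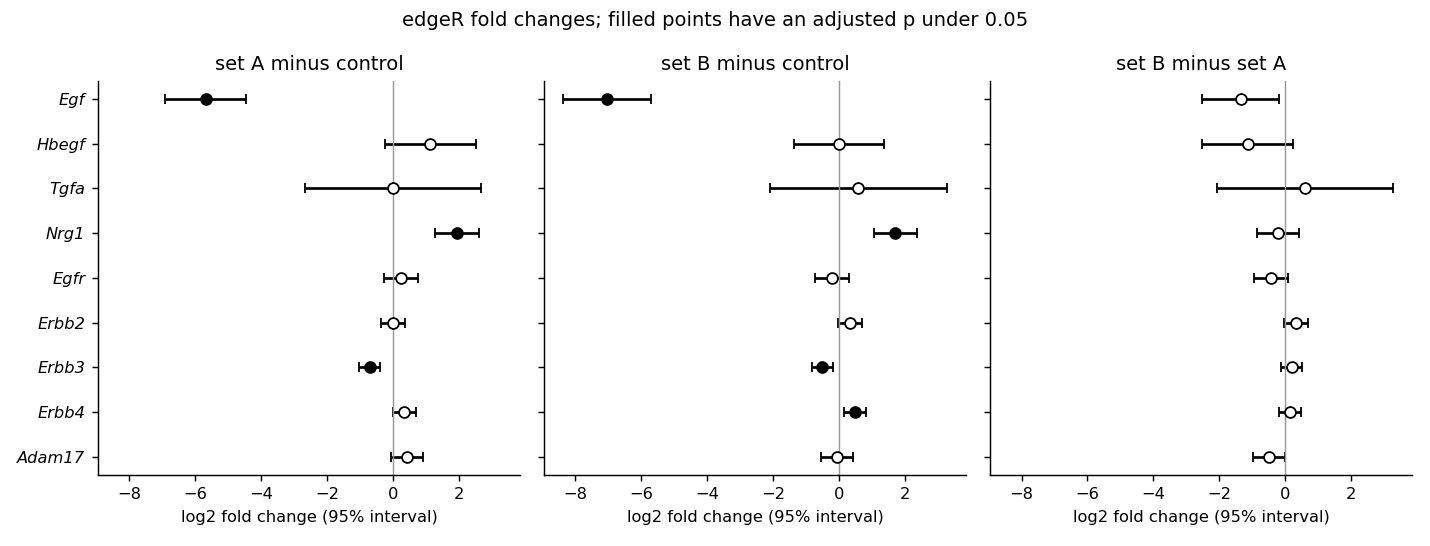
Log2 fold change with its 95% interval (edgeR) of the 7 members tested and of Nrg1 and Erbb4, comparing each ischemia set with the controls and the sets with each other. Filled points have an adjusted p under 0.05. Egf and Erbb3 are lower and Nrg1 higher in both sets, and no gene is called between the sets.

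The other ERBB genes, named in full, were Epgn, Nrg1, Nrg2, Nrg3, Nrg4 and Erbb4. Nrg1, which encodes neuregulin 1, a ligand of ERBB3 and ERBB4 and not of EGFR, was at 29.9, 26.4, 33.6 and 18.5 CPM in controls. It was at 77.5, 130.3, 98.0 and 109 CPM in set A, and at 111, 115, 98.2 and 28.9 CPM in set B. All ischemic kidneys but replicate 4 of set B were above all controls. It rose 3.83-fold in set A (log2 1.94, SE 0.32, edgeR adjusted p = 0.000126) and 3.27-fold in set B (log2 1.71, SE 0.32, edgeR adjusted p = 0.000421). Without replicate 4 the log2 fold change in set B was 1.998.

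Erbb4, a receptor of neuregulins and of several EGF-type ligands, was at 80.7, 62.0, 80.7 and 83.9 CPM in controls, at 104.6, 91.1, 110.7 and 82.3 CPM in set A, and at 89.0, 106, 101 and 133 CPM in set B. Every kidney of set B was above every control, beside 26.7% of all genes tested whose ranges did not overlap in that comparison. Its call in set B was marginal (log2 0.48, SE 0.17, edgeR adjusted p = 0.0428) and was lost in 9 of 12 fits that left out a kidney, with log2 values from 0.36 to 0.54 and edgeR adjusted p up to 0.157. The fits that lost it were those without any 1 of the 4 controls, without replicate 2 or 3 of set A, or without replicate 2, 3 or 4 of set B. In set A it was not called (log2 0.34, edgeR adjusted p = 0.17). Epgn and Nrg3 were listed at 0 in all kidneys, Nrg2 had counts in 2 controls only (40 and 43), and Nrg4 had 20 to 36 counts in 3 kidneys and 0 in the rest.

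The order of levels per kb of exon differed between controls and ischemic kidneys. In controls it ran from Erbb3 (21.9 CPM per kb) and Egf (18.2) through Erbb2 (13.9), Erbb4 (6.22), Adam17 (3.73), Egfr (3.47) and Nrg1 (2.62) to Hbegf (0.933) and Tgfa (0.232). Among neighbours, the ranges over the 4 controls overlapped for Erbb3 and Egf, Adam17 and Egfr, Egfr and Nrg1, and Hbegf and Tgfa. In the 8 ischemic kidneys the order was Erbb2 (15.8), Erbb3 (14.3), Nrg1 (9.28), Erbb4 (8.27), Adam17 (4.27), Egfr (3.54), Hbegf (1.49), Tgfa (0.288) and Egf (0.246), followed by Btc (0.0223), and only Erbb4 and Adam17 were neighbours without overlap. Erbb3 held 47.9% ± 2.73 (SD, n = 4) of the summed level of the 4 receptors in controls, 34.3% ± 6.04 in set A (n = 4) and 34.3% ± 1.28 in set B (n = 4), and Erbb2 30.6%, 35.5% and 39.4%. These lengths are unions of all annotated exons, which can exceed the transcripts used in kidney.

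Among the proteins that act with ADAM17 or beside it, 9 genes were listed and all were tested. In set A, 3 rose and 1 fell, and in set B 4 rose and 1 fell. Of all genes tested, 10.5% rose and 11.7% fell in set A, and 10.9% rose and 11.9% fell in set B. Rhbdf2 and Rhbdf1 (iRhom2 and iRhom1) and Frmd8 (iTAP), partners that carry ADAM17 to the cell surface and hold it there, rose in both sets, with log2 fold changes of 1.505 and 1.27 for Rhbdf2, 0.96 and 1.17 for Frmd8, and 0.85 and 0.75 for Rhbdf1. Timp3, an inhibitor of ADAM17, was at 182 to 239.7 CPM in controls, 48.0 to 64.3 CPM in set A kidneys and 65.3 to 92.5 CPM in set B kidneys. It fell in both sets (log2 -1.90 and -1.54, edgeR adjusted p = 4.95e-08 and 7.49e-07). Adam10, the other main sheddase of the family and the one known for Egf and Btc, was not called (log2 0.12 and -0.01, edgeR adjusted p = 0.568 and 0.977).

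Of the 24 signal carriers listed, 23 were in the table and tested. In set A 7 rose and 2 fell, and in set B 7 rose and 3 fell, where 22.3% and 22.8% of all genes tested were called. In both sets 6 rose and 2 fell, beside 9.07% of all genes tested that rose in both and 9.49% that fell in both. The largest of these differences were in Stat3, a transcription factor activated by cytokine and EGF receptors (log2 1.47 in set A kidneys and 1.52 in set B kidneys), in Nras, a RAS GTPase (1.42 and 1.45), and in Src, a kinase that joins receptor and ERK signalling (1.06 and 1.04). Pik3ca, the catalytic subunit of PI3K, fell in both sets (log2 -0.94 and -0.83), as did Sos1, which loads RAS with GTP (log2 -0.54 and -0.58).

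Of the 16 feedback inhibitors, 3 rose and 1 fell in either set, and the 4 genes were the same. That is 4 of 16 called, where 22.3% of all genes tested were called in set A and 22.8% in set B. Dusp5, a nuclear ERK phosphatase, was at 3.20 to 4.89 CPM in controls, 50.6 to 99.3 CPM in set A kidneys and 28.9 to 89.4 CPM in set B kidneys (log2 4.13 and 4.11, edgeR adjusted p = 2.09e-08 and 2.29e-08). Spry2, a sprouty inhibitor of receptor signalling, rose by 1.20 and 1.01 on the log2 scale. Cbl, the ubiquitin ligase that sends EGFR for degradation, rose by 0.67 and 0.49. Its call in set B (edgeR adjusted p = 0.0404) was lost without replicate 1, 2 or 3 of the controls, replicate 3 of set A, or replicate 2, 3 or 4 of set B, with log2 values of 0.38 to 0.51 in these fits. It was also lost with no filter on low counts (edgeR adjusted p = 0.0633) and with only the 2 groups fitted (edgeR adjusted p = 0.0592). Errfi1 (MIG6), a direct inhibitor of the EGFR kinase, moved the other way, from 106.2 to 117.5 CPM in controls to 47.4 to 71.2 CPM in set A kidneys and 29.9 to 65.1 CPM in set B kidneys. It fell in both sets (log2 -0.96 and -1.16, edgeR adjusted p = 0.00198 and 0.000373).

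Of the 10 genes known to respond to ERK activity, 5 rose in both sets and none fell. Of all genes tested, 9.07% rose in both sets and 9.49% fell in both. The median log2 fold change of the 10 was 2.24 in set A kidneys and 2.50 in set B kidneys. Plaur and Fosl1 had no counts in controls and lie above that median. Myc, a growth transcription factor, was at 2.68 to 6.90 CPM in controls, 47.7 to 64.4 CPM in set A kidneys and 40.3 to 63.4 CPM in set B kidneys (log2 3.56 and 3.35). Etv4, an ETS factor, was at 0 to 2.39 CPM in controls, 11.3 to 29.8 CPM in set A kidneys and 6.37 to 22.7 CPM in set B kidneys (log2 3.91 and 3.51). Plaur, the urokinase receptor, had no count in any control and averaged 3.26 CPM in set A kidneys and 1.74 CPM in set B kidneys. No fold is given for it, since it is not known whether small counts were set to 0. Egr1, an immediate early factor, rose by 1.12 and 0.93 on the log2 scale. These genes also answer to many other receptors, and no measurement of protein or phosphorylation was used here.

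Over the 6 other ERBB genes and these 4 lists together, 60 of 65 genes were tested. In set A 19 rose and 4 fell (7 without replicate 4 of set A), in set B 21 rose and 5 fell, 18 rose and 4 fell in both sets, and none was called between the sets. Over all genes tested, 9.07% rose in both sets and 9.49% fell in both. The median log2 fold change of the 60 was 0.38 in set A kidneys and 0.40 in set B kidneys, beside -0.02 over all genes in either comparison.

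**Figure D5:**
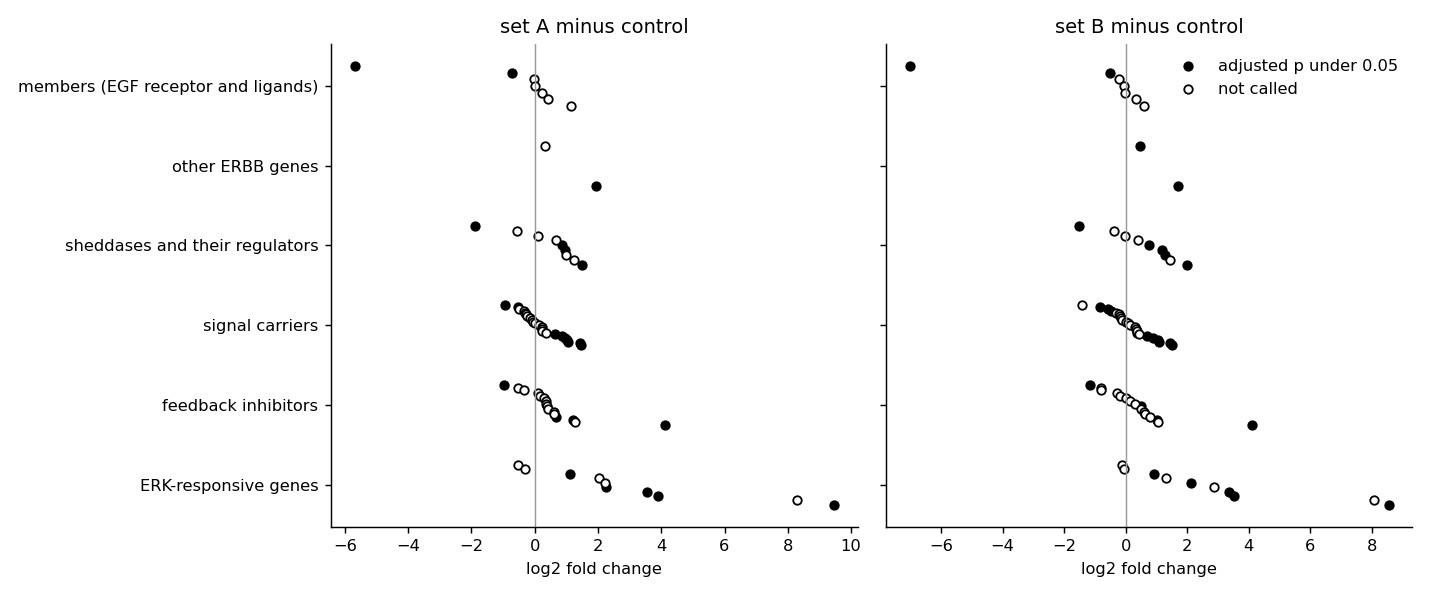
Log2 fold change against control (edgeR) of each tested member and each tested gene of 5 pathway lists, in set A (left) and set B (right). Each point is a gene, and filled points have an adjusted p under 0.05. Egf stands at the far left at -5.68 and -7.03, and the 2 points at the far right, Plaur and Fosl1, had no counts in controls, so that their fitted values depend on the prior count.

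Marker lists of other cell types moved with the ischemic groups, and their part in the results above was not tested. For comparison, 9.49% of all genes tested fell in both sets and 9.07% rose in both. All 7 proximal tubule markers fell in both sets (summed CPM 6903 to 7691 in controls, 731 to 1326 in set A kidneys and 424 to 1391 in set B kidneys), and none was at 0 throughout. Of 7 markers of injured tubule, 6 rose in both sets, the exception being Vcam1 (summed CPM 21.5 to 33.5 in controls, 736 to 1062 in set A kidneys and 779 to 1279 in set B kidneys). Of 4 fibroblast markers, Col1a1 and Col3a1 rose in both sets (summed CPM 384.5 to 494.6 in controls, 909 to 2500 in set A kidneys and 1121 to 2344 in set B kidneys). That sum is mostly Col1a1, and Pdgfrb was not called, at means of 35.0, 46.2 and 39.9 CPM. Of 4 urothelial markers, Krt5 rose in both sets and 1 was at 0 throughout (summed CPM 7.81 to 14.6 in controls, 62.5 to 162.7 in set A kidneys and 74.3 to 270.0 in set B kidneys). That sum is almost all Krt5, a basal keratin of several epithelia, at means of 9.38, 117 and 148 CPM in the 3 groups. The uroplakin Upk1b was not called, at 1.72, 1.07 and 1.27 CPM, Upk3a was at 0.215 CPM in controls and 0 after ischemia, and Upk2 was the marker at 0. Of the 6 macrophage and leukocyte markers in the table, Csf1r and Cd3e fell in both sets and none rose (summed CPM 44.7 to 67.4 in controls, 9.45 to 26.0 in set A kidneys and 13.2 to 35.6 in set B kidneys). That sum is mostly Csf1r, at a mean of 52.1 CPM in controls, 13.5 in set A kidneys and 10.5 in set B kidneys. Ptprc, Cd68 and Itgam were not called and their ranges overlapped, at 0 to 11.3, 0 to 8.69 and 0 to 2.27 CPM in set B kidneys beside 1.66 to 6.24, 0 to 1.66 and 0 to 0.779 CPM in controls. The median log2 fold change of the 5 markers tested was -0.01 in set A kidneys and 0.57 in set B kidneys. Podxl rose among 3 podocyte markers, none of the collecting duct or endothelial markers was called, and the neutrophil, adrenal and fat lists were at or near 0, at most 1.56 CPM in sum.

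The level of the members was also set beside that of Havcr1 (kidney injury molecule 1), one of several injury measures in the study, over the 8 ischemic kidneys. The transcript is made by injured tubule cells that are still alive, so its level is not a plain scale of severity. For Egf, Pearson's r of log2 CPM was 0.74 (exact permutation p = 0.0785, adjusted over 7 relations 0.549) and Spearman's rho 0.24 (exact permutation p = 0.582). Without the 2 kidneys farthest from the median of Havcr1, r was 0.57. None of the 7 relations passed the adjustment for r or for rho, the smallest adjusted p being 0.549. Within a set there were 4 kidneys, too few for this measure, so a relation within either set was not computed.

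Across the 12 kidneys, the genes whose log2 CPM was most like that of Egf among 8512 genes compared were Herc4 (r = 0.967), Tbc1d10a (0.966) and Acsm3 (0.961). Their means were lower in both ischemia sets. After group means were subtracted the 3 most like Egf were others, Rmdn1 (0.957), Gm2a (0.947) and Clybl (0.934). Acsm3, an acyl-CoA synthetase, had a mean of 455 CPM in controls, 16.3 CPM in set A kidneys and 8.73 CPM in set B kidneys. For Hbegf they were Tnfrsf1a (0.917), Dvl1 (0.906) and Cebpb (0.895), and for Egfr Cacybp (0.819), Fhl2 (0.816) and Snap29 (0.806). Tnfrsf1a, the main TNF receptor, had a mean of 4.78 CPM in controls, 11.8 CPM in set A kidneys and 5.24 CPM in set B kidneys, and it stayed among the 3 most like Hbegf after group means were subtracted (r = 0.913), with Zfp787 (0.953) and Dopey2 (0.926) in place of the other two. For Egfr all 3 were then others, Fam188a (0.893), Zfp191 (0.887) and Kpna4 (0.884). These correlations describe 12 libraries that share the 3 groups and the depth of sequencing, and they carry no test.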

How the data were processed

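RNA from 12 kidneys (4 control, 4 in ischemia set A and 4 in ischemia set B), of which the middle part was kept for histology, was measured by stranded, poly(A)-selected sequencing with single reads. The authors mapped reads to mm10 with STAR and deposited raw counts per gene from HTSeq, without normalization. Versions, annotation release and the strand setting of the counting are not given in the sources used here. No column was left unassigned.

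Counts were analysed in edgeR 4.0.16 (R 4.3.3). The default low-count filter (about 10 counts or more in as many kidneys as a group holds, and 15 or more in all) kept 11664 genes, libraries were scaled by TMM (factors 0.968 to 1.03), and a single fit of all 12 kidneys gave quasi-likelihood F-tests (two-sided). Benjamini-Hochberg adjustment covered every gene tested, and 0.05 was the threshold. The common biological coefficient of variation was 0.762, and total counts of 15367342 to 44793350 put 3 counts at 0.067 to 0.195 CPM. Single values were compared with exact permutation tests in SciPy 1.17.1. Exon lengths are from GENCODE vM21 and promoter sequences from RefSeq. The fit was tested on simulated counts. Replicate numbers come from the titles. No pair of replicates within a group agreed within sampling noise (smallest chi-square per degree of freedom 50.6), and each was counted as a separate mouse.

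Members and gene lists were chosen with earlier results of these data known. All members and all other ERBB genes are named, and from each pathway list the 3 largest differences of either sign in set A among genes called in both sets. Fosl1, Mien1, Iah1, Adam10, Rhbdf1, Pik3ca, Sos1, Cbl and Egr1 were named to account for a list, an overlap or a figure, some of them after their values were seen. Alternatives were no filter on low counts, RLE size factors, the replicate number as a block, a fit of only the groups compared, DESeq2 1.42.0, and leaving out each kidney. No other cell type markers, protein sequences or measurements by PCR were used here.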

Additional observations from a re-analysis of the deposited data

Results flagged for a closer look

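Among 34 groups of 4 kidneys checked for a single kidney far from the others, 4 stood out, where chance would give about 1 in 20. Erbb3 was at 95.2 CPM in replicate 4 of set A and at 74.7 to 76.7 CPM in the other 3. The same kidney had Adam17 at 22.8 CPM, with 39.1 to 40.6 CPM in the other 3. Erbb4 was at 62.0 CPM in replicate 2 of the controls and at 80.7 to 83.9 CPM in the other 3 controls. Btc was at 0.808 CPM in replicate 1 of set B and at 0 in the other 3.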

How the results depend on the processing

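Of 357 alternatives for fold changes of members, 329 kept the direction and the side of the threshold. The calls of Egf in both sets and of Erbb3 in set A were kept in all of them. In set B, 1 to 2 members were called lower when 1 kidney was left out (1 without replicate 1 or 3 of the controls, where Erbb3 was lost). In set A, 4 to 7 genes of the pathway lists were called lower, 7 of them without replicate 4 of set A; the cause was not tested.

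The direction of 4 uncalled members and of the uncalled difference of Nrg1 between the sets turned. Tgfa in set A was at a log2 fold change of 0.00267 with RLE size factors, 0.0153 with only the 2 groups fitted, 0.00609 in DESeq2, and -0.63 to 0.36 without 1 kidney. Erbb2 in set A was at -0.0090 with no filter on low counts and -0.0691 to 0.0895 without 1 kidney. Hbegf in set B was at 0.0295 with RLE size factors, 0.0294 in DESeq2 and -0.46 to 0.36 without 1 kidney. Leaving out 1 kidney gave -0.14 to 0.011 for Adam17 in set B and -0.39 to 0.0621 for Nrg1 between the sets.

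Same-numbered kidneys did not deviate together (correlations -0.055 to 0.045, none of 12 pairs over 0.1, and 1 of 12 kidneys correlated best with its own number). The replicate numbers thus gave no sign of pairing. Whether kidneys of different groups shared a mouse, a litter or an operation was not tested. With the replicate number as a block, 2 members were again called lower in either set, Hbegf in set B was at 0.0946, Tgfa in set B at -0.15, Erbb4 in set B lost its call (0.48, edgeR adjusted p = 0.0573), and 2491 and 2531 genes were called in sets A and B, beside 2599 and 2659 without it. The calls of Erbb4 and Cbl in set B were also lost with no filter on low counts (0.46 and 0.47) and with only the 2 groups fitted (0.48 and 0.49).

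With 4 kidneys a group and a wide spread at low counts, differences of Tgfa, Btc, Areg and Ereg were not detectable at this depth. The edgeR p-values set differences against a spread between kidneys that was estimated in part from all genes tested. Permutation p-values are bounded by the number of kidneys, and counting intervals cover counting error only.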
